A study of Mus musculus with 6 samples.

Results

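The 36 genes described here encode regulators of pre-mRNA splicing: SR proteins, heterogeneous nuclear ribonucleoproteins (hnRNPs) and regulators that are restricted to certain tissues. They were chosen by gene symbol, because the long noncoding RNA Paupar, which is transcribed beside the transcription factor gene Pax6, has been linked to alternative splicing of Pax6. All 36 symbols were found among the 23284 gene symbols of the count tables, and all 36 had enough counts to be tested. The cells were MIN6, a mouse insulinoma line that serves as a model of pancreatic beta cells. Total RNA came from 3 libraries labelled Control ASO (control KD replicates 1 to 3) and 3 labelled Paupar ASO (Paupar KD replicates 1 to 3). ASO usually stands for antisense oligonucleotide and KD for knockdown. MIN6 is a single tumour line, both groups received an oligonucleotide, and the labels name no untreated cells, dose or time. No label names the replicates as separate cultures, so p-values measure only how far these libraries spread, and that spread may be technical. Paupar itself matched 0 gene symbols, and the knockdown was not checked from these counts.

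SR proteins carry RNA recognition motifs and a domain rich in arginine and serine, bind exonic enhancers and help the spliceosome to select a splice site. Many hnRNPs bind silencers and oppose that selection, so the balance between the 2 groups shapes which exons are kept. Their activity also depends on phosphorylation by kinases of the CLK and SRPK families. Endocrine cells share with neurons several regulators that most tissues lack, among them Srrm4, which promotes the inclusion of microexons, and Elavl4 and Nova1. The counts give the amount of RNA per gene and do not measure splice isoforms, protein or phosphorylation. In bulk RNA, fewer cells with a transcript and less of it per cell cannot be told apart.

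3 splice sites show what such regulators act on, at coordinates of the mm9 assembly. The first is the end of the intron before a 34-base exon of Ptbp2 (exon at chr3:119427530-119427563, minus strand). PTBP1 is known to bind pyrimidine-rich sequence there and to repress this exon, which leaves a Ptbp2 transcript open to nonsense-mediated decay. Capitals mark the word TCTT, a core word of PTBP1 binding, searched on the transcribed strand together with CTCTCT, which the stretch does not contain. The other 2 are the acceptor and donor sites of exon 5a of Pax6 (exon at chr2:105524908-105524949, plus strand), whose inclusion alters the paired domain of PAX6. There capitals mark the exon.
Ptbp2 acceptor, chr3:119427564-119427593, minus strand: tacgctgcttgcTCTTctctccttctaaag
Pax6 exon 5a acceptor, chr2:105524888-105524917, plus strand: ggtatatttttgtgttatagACCCATGCAG
Pax6 exon 5a donor, chr2:105524940-105524969, plus strand: CAATGAAAACgtaagcttgtcattgtttaa
TCTT lies in the last 30 intron bases of 43.6% of 174804 annotated splice acceptors, so its presence before the Ptbp2 exon is common.

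No splicing regulator passed the test of Paupar KD against control KD. The count was 0 higher and 0 lower of 36 (edgeR's quasi-likelihood test, adjusted p under 0.05, smallest adjusted p = 0.151 for Srrm2). Over all 13039 tested genes, 0.0383% passed as higher and 0.00767% as lower, 0.046% in all. At an unadjusted p under 0.05 there were 2 higher (Srsf9 and Ptbp2) and 4 lower members (Srrm1, Srrm2, Srsf11 and Esrp2), 16.7% of the members. Over all tested genes that share was 17.7%, with 9.63% higher and 8.11% lower. In 10 of the 36 the 2 groups did not overlap, 1 higher and 9 lower in Paupar KD. Among all tested genes the groups did not overlap for 27.1%, with 13.7% higher and 13.3% lower. The members' 27.8% is therefore near the background, while 9 of the 10 lay in the lower direction (7 of 9 with upper-quartile scaling factors). Log2 fold changes ran from -0.63 to 0.48, 15 of them positive and 21 negative. Their median was -0.06, and that of all tested genes 0.01. The members' median was -0.0033 without Paupar KD replicate 3, -0.11 without Paupar KD replicate 2, -0.0853 without Paupar KD replicate 1, -0.0266 with upper-quartile factors and 0.003, with its sign turned, when each library's trend on transcript length was removed. The outcome of the test depended on the tool and on 1 library. DESeq2 called 1 member lower, Srrm2, where it called 1.82% of all genes lower and 3.97% in all, and limma-voom called 0 members. Without Paupar KD replicate 3, edgeR called 5 members, 3 higher (Ptbp2, Hnrnph1 and Tra2a) and 2 lower (Hnrnpf and Mbnl2), where it called 4.65% of all genes higher and 5.67% lower, 10.3% in all.

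**Figure D1:**
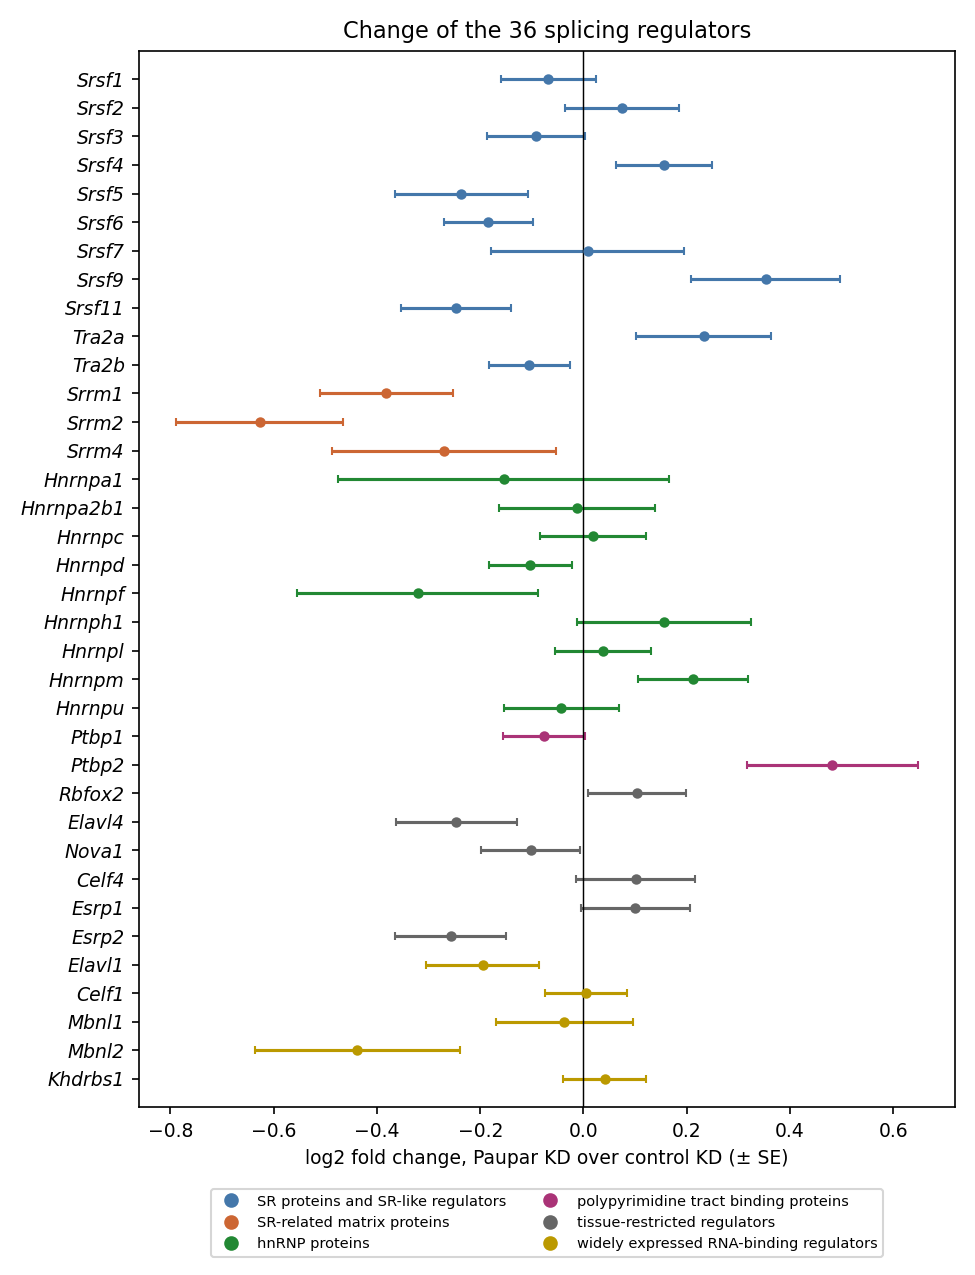
Log2 fold change of each of the 36 splicing regulators, Paupar KD over control KD, with its standard error (points and bars, 3 libraries per group, edgeR), coloured by role. Srrm2 lies lowest at -0.63 and Ptbp2 highest at 0.48; no member passed the adjusted threshold.

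The Paupar KD libraries were less alike than the controls for these genes. The median coefficient of variation of the members was 2.81% in control KD and 13.3% in Paupar KD, and 31 of the 36 varied more in Paupar KD. For all tested genes the medians were 5.31% and 14.2%, and 11037 of 13039 varied more in Paupar KD, a share near that of the members. Celf1, which binds GU-rich RNA, lay at 350.2 to 350.7 CPM (counts scaled to the library total with TMM factors) in the controls and at 339, 368 and 347 CPM in Paupar KD replicates 1 to 3. It is not typical: its control coefficient of variation of 0.0757% was the lowest of the 36. Its 4.27% in Paupar KD was below the members' median. In 19 of the 36 members the 3 Paupar KD libraries fell on both sides of the control mean, and for all tested genes that share was 55.2%. Replicate 1 was the Paupar KD library farthest from the control mean for 16 members, replicate 3 for 12 and replicate 2 for 8. Over all tested genes replicate 1 was farthest for 57.9%. The summed level of the 36 members was 8571 to 8651 CPM in the controls and 8399, 8785 and 7458 CPM in Paupar KD replicates 1 to 3, so replicate 3 alone was well below.

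**Figure D2:**
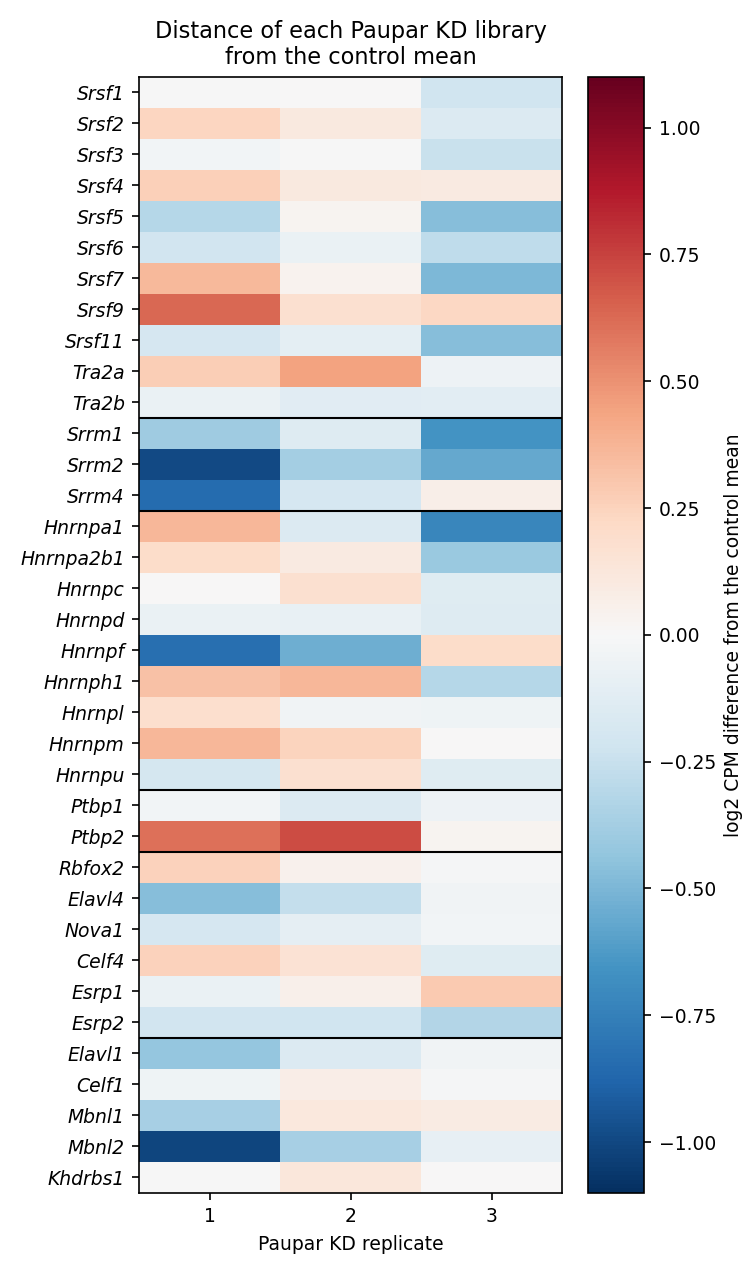
Log2 CPM of each member in Paupar KD replicates 1 to 3 (columns) minus its mean over the 3 controls, in colour, with lines between the role classes. Several rows change colour between replicates, such as Srsf7 at 0.36, 0.04 and -0.49, while Srrm2 and Srrm1 are blue in all 3.

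Of the 11 SR proteins and SR-like regulators, 5 had positive and 6 negative log2 fold changes. Srsf9 was at 85.5, 79.2 and 67.6 CPM in control KD and at 119, 87.0 and 90.5 CPM in Paupar KD. All 3 Paupar KD libraries lay above the controls, replicate 2 only just, and Srsf9 was the sole member with that pattern (edgeR log2 fold change 0.35 ± 0.14 SE and adjusted p = 0.264). Without replicate 1 its log2 fold change was 0.19. Srsf11, an SR-related protein of the spliceosome, was at 249.7, 236 and 245 CPM against 214, 226 and 176 CPM. All its Paupar KD values lay below the controls, with replicate 3 lowest (edgeR log2 fold change -0.25 ± 0.11 SE and adjusted p = 0.281). Srsf6, which regulates many alternative exons, was at 432, 427 and 422 CPM in control KD and at 370.0, 405 and 352 CPM in Paupar KD, again without overlap (edgeR log2 fold change -0.18 ± 0.09 SE and adjusted p = 0.306). Tra2b, a splicing activator, was at 105, 112 and 109 CPM and at 103, 99.7 and 100.2 CPM. Its groups did not overlap, though they lay close (edgeR log2 fold change -0.10 ± 0.08 SE and adjusted p = 0.495).

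Its paralog Tra2a was at 88.5 to 98.4 CPM in the controls and at 113, 127 and 89.8 CPM in Paupar KD. Replicates 1 and 2 were above the controls and replicate 3 was within them, and edgeR called Tra2a higher without replicate 3 only (log2 fold change 0.36, adjusted p = 0.0494). Srsf1, the first SR protein to be described as a splicing factor, was at 438, 448 and 459 CPM in control KD and at 448, 449 and 385 CPM in Paupar KD (edgeR log2 fold change -0.07 ± 0.09 SE and adjusted p = 0.719). Only replicate 3 left the control range. Srsf7, which binds GA-rich enhancers and export factors, spread farthest in its class, with 255, 204 and 141 CPM in Paupar KD replicates 1 to 3 against 193 to 203 CPM. The remaining members overlapped between groups: Srsf2, Srsf3, Srsf4 and Srsf5 had log2 fold changes between -0.24 and 0.16. Summed over the class, the level was 2320 to 2361 CPM in the controls and 2414, 2381 and 1987 CPM in Paupar KD replicates 1 to 3.

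All 3 genes of SR-related matrix proteins among the members had negative log2 fold changes, and that of Srrm2 was the lowest of the 36. Srrm3, not among the 36, was at 26.9 to 32.6 CPM in control KD and at 26.3 to 34.1 CPM in Paupar KD. Its log2 fold change was 0.04 ± 0.13 SE (edgeR adjusted p = 0.891). Srrm2, a large scaffold protein of nuclear speckles, was at 631, 654 and 778 CPM in control KD and at 345, 527 and 463 CPM in Paupar KD. Every Paupar KD library lay below every control, by the most in replicate 1. The control mean was 687 ± 79.3 CPM and the Paupar KD mean 445 ± 92.6 CPM (SD, n = 3 in each), 0.65 of the control level (edgeR log2 fold change -0.63 ± 0.16 SE and adjusted p = 0.151; DESeq2 adjusted p = 0.0159). Srrm1, a coactivator that bridges SR proteins and the core machinery, was at 224, 226 and 224 CPM in control KD and at 171, 204 and 142 CPM in Paupar KD. Replicate 3 was its lowest library, and the groups did not overlap (edgeR log2 fold change -0.38 ± 0.13 SE and adjusted p = 0.220). Srrm4, the microexon regulator, was low in these cells, at 218 to 305 counts in the control libraries and 95 to 247 in Paupar KD. Its level was 10.5, 9.28 and 10.6 CPM in control KD and 5.60, 8.90 and 10.6 CPM in Paupar KD, so only replicates 1 and 2 lay below the controls (edgeR log2 fold change -0.27 ± 0.22 SE and adjusted p = 0.527).

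**Figure D3:**
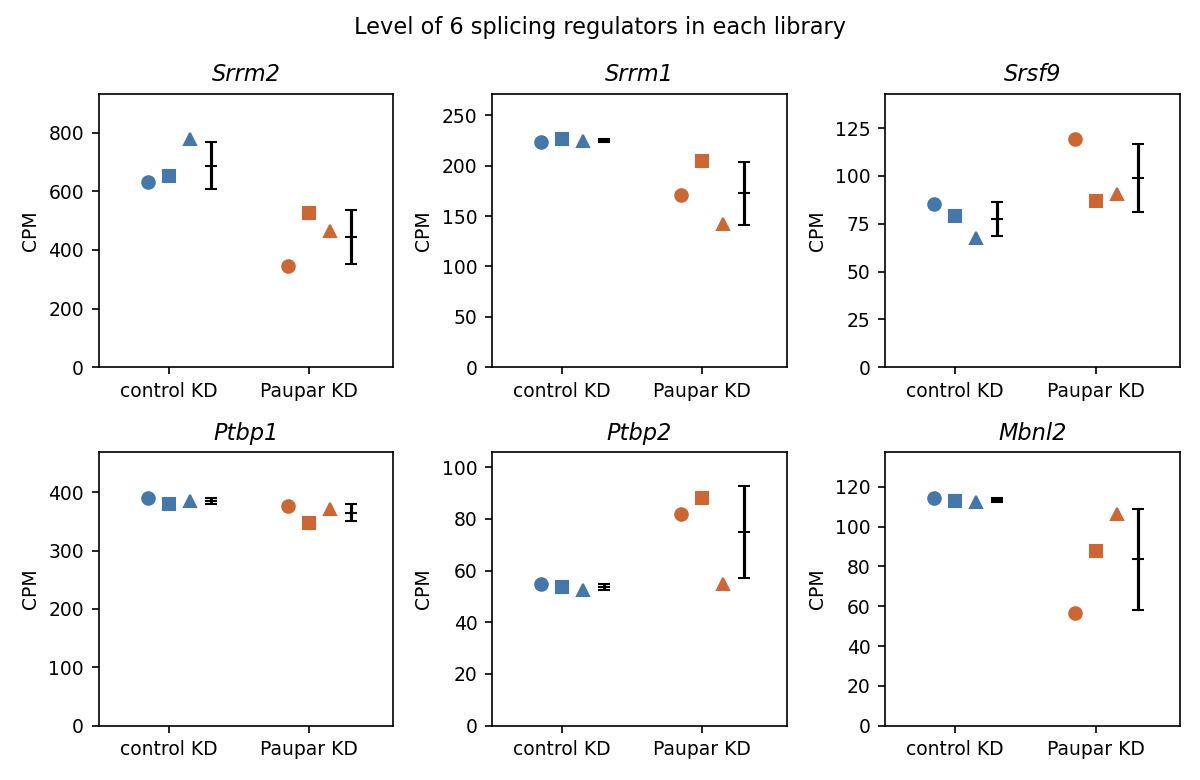
Level in CPM (from 0) of 6 members in each library, with circles, squares and triangles for replicates 1, 2 and 3 and, at the right of each group, the mean ± SD. Srrm2, Srrm1, Ptbp1 and Mbnl2 lie below the controls and Srsf9 above them in all 3 Paupar KD libraries; Ptbp2 is higher in replicates 1 and 2, with replicate 3 at the control level of 54.9 CPM.

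Among the 9 hnRNP genes the groups overlapped for every one, and 0 had an unadjusted p under 0.05. The smallest p was that of Hnrnpm, which promotes or blocks exons through GU-rich sites, at 262, 259 and 253 CPM in control KD and 333, 305 and 258 CPM in Paupar KD (edgeR log2 fold change 0.21 ± 0.11 SE and adjusted p = 0.329). Hnrnpm shares 1169 exon bases with the protein-coding gene March2 on the same strand, and how reads there were counted is not known. Hnrnph1, which binds runs of G, was at 433 to 437 CPM in the controls and at 544, 562 and 350 CPM in Paupar KD. Its libraries thus parted in opposite directions, and without replicate 3 edgeR called it higher (log2 fold change 0.35, adjusted p = 0.0408; 0.16 and adjusted p = 0.647 with all libraries). Hnrnpf, a close relative of Hnrnph1 that binds the same kind of sequence, had the reverse order: 110.2 to 122 CPM in the controls and 65.8, 81.0 and 135 CPM in Paupar KD. Without replicate 3 it was called lower (log2 fold change -0.68, edgeR adjusted p = 0.0166, against -0.32 and 0.485 with all libraries).

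Hnrnpa2b1, an abundant binder of UAG-containing RNA, was at 1109 to 1198 CPM in the controls and at 1321, 1225 and 867 CPM in Paupar KD replicates 1 to 3. Hnrnpu, a nuclear scaffold protein, was at 788 to 800.4 CPM and at 692, 894 and 724 CPM. For Hnrnpc, Hnrnpd and Hnrnpl the log2 fold changes lay between -0.10 and 0.04. Hnrnpa1 had only 30 to 67 counts per library (1.29 to 2.85 CPM). The gene has many near-identical processed pseudogenes, so its level here is uncertain; the division of reads between gene and pseudogenes was not tested.

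Neither of the polypyrimidine tract binding protein genes among the members, Ptbp1 and Ptbp2, passed the test with all libraries. PTBP1 is widespread and PTBP2 is its paralog in neurons and some endocrine cells, and they bind similar sequence. Ptbp1 (chromosome 10, 79317172 to 79327516) was at 391, 380.4 and 385 CPM in control KD and at 377, 348 and 371 CPM in Paupar KD. All 3 Paupar KD values were below the controls, by little (edgeR log2 fold change -0.08 ± 0.08 SE and adjusted p = 0.632). On the opposite strand, Ptbp1 shares 437 exon bases with Gm17134, 251 with BC005764 and 85 with E130317F20Rik. With the strand setting unknown, reads there cannot be told apart, and the Ptbp1 counts in the ratio below share this limit. Ptbp2 (chromosome 3, 119421660 to 119486306) was at 54.9, 53.5 and 52.6 CPM in control KD and at 81.9, 88.2 and 54.9 CPM in Paupar KD. Replicates 1 and 2 lay far above the controls and replicate 3 was level with the highest of them (1.40-fold, edgeR log2 fold change 0.48 ± 0.17 SE and adjusted p = 0.223). Without replicate 3 edgeR called Ptbp2 higher, with a log2 fold change of 0.67 (adjusted p = 0.00622). With each other library left out in turn, edgeR's adjusted p was 0.254 to 0.584. Per 100 Ptbp1 counts of the same library there were 14.0, 14.1 and 13.7 Ptbp2 counts in control KD and 21.7, 25.4 and 14.8 in Paupar KD. That ratio leaves out their paralog Ptbp3, which is not a member. Ptbp3 was at 489 to 537 CPM in control KD and at 333, 503 and 581 CPM in Paupar KD (edgeR log2 fold change -0.12 ± 0.18 SE and adjusted p = 0.748). Whether the 34-base exon shown above was included was not measured.

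None of the 6 regulators restricted to certain tissues passed the test. Rbfox2, which binds GCAUG, was at 121, 124 and 124 CPM in control KD and at 147, 127 and 122 CPM in Paupar KD (edgeR log2 fold change 0.10 ± 0.09 SE and adjusted p = 0.584). Elavl4, a neuronal RNA-binding protein also made in beta cells, was at 69.0, 75.1 and 70.1 CPM and at 51.5, 59.6 and 69.3 CPM. Its replicates 1 and 2 were below the controls and replicate 3 was within them (edgeR log2 fold change -0.25 ± 0.12 SE and adjusted p = 0.311). Nova1, which binds YCAY clusters, was at 27.8, 27.0 and 30.3 CPM in control KD and 24.9, 26.5 and 27.8 CPM in Paupar KD (edgeR log2 fold change -0.10 ± 0.10 SE and adjusted p = 0.597). Celf4 was at 89.1 to 98.5 CPM and at 84.4 to 111 CPM.

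Esrp1 and Esrp2 are the epithelial splicing regulators. Esrp1 was at 132, 135 and 131 CPM in control KD and at 127, 138 and 163 CPM in Paupar KD, with only replicate 3 clearly above (edgeR log2 fold change 0.10 ± 0.11 SE and adjusted p = 0.641). Esrp2 was at 19.0, 19.1 and 21.9 CPM in control KD and at 17.2, 17.1 and 16.0 CPM in Paupar KD. Its groups did not overlap and its Paupar KD libraries lay close together (edgeR log2 fold change -0.26 ± 0.11 SE and adjusted p = 0.270). Esrp2 shares 219 exon bases with Nfatc3 on the opposite strand, and with the strand setting unknown their reads there cannot be told apart. In all, 12 members share exon bases with another annotated gene, 10 of them with a gene on the opposite strand.

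Of 5 widely expressed regulators, Mbnl2 had the log2 fold change farthest from 0. MBNL2 binds YGCY sites and drives adult splicing patterns. Mbnl2 was at 115, 113 and 113 CPM in control KD and at 56.4, 87.9 and 106 CPM in Paupar KD. All 3 Paupar KD libraries lay below the controls, with replicate 1 far below the other two (edgeR log2 fold change -0.44 ± 0.20 SE and adjusted p = 0.294), and without replicate 3 edgeR called the gene lower (log2 fold change -0.65, adjusted p = 0.0488). Elavl1, which stabilises AU-rich mRNAs, was at 127, 129 and 133 CPM and at 96.7, 116 and 126 CPM, also without overlap (edgeR log2 fold change -0.20 ± 0.11 SE and adjusted p = 0.373). The paralog Mbnl1 was at 116 to 126 CPM in the controls and at 93.8, 131 and 129 CPM in Paupar KD, on both sides of them. Khdrbs1, which encodes the signal-responsive splicing factor SAM68, was at 206 to 212 CPM and at 208 to 228 CPM.

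Levels of different genes can be set side by side only per length, here as CPM per kilobase of the longest annotated transcript. In control KD Hnrnpa2b1 was highest at 281 ± 11.1, followed by Hnrnpu at 205 ± 1.61, Hnrnph1 at 179 ± 0.97 and Srsf2 at 173 ± 4.89 CPM per kilobase (SD, n = 3). Ptbp1 (122 ± 1.62) and Srsf6 (121 ± 1.48) differed by less than their spread. Lowest were Srrm4 at 1.36 ± 0.10, Hnrnpa1 at 1.98 ± 0.50, Nova1 at 4.05 ± 0.25 and Esrp2 at 5.66 ± 0.47. The place of Hnrnpa1 is uncertain because of its processed pseudogenes. Ptbp2 was at 16.0 ± 0.34, Elavl4 at 17.2 ± 0.78 and Esrp1 at 34.4 ± 0.56 CPM per kilobase. The files' annotation is not given in the sources used here, so these lengths may differ from those that were counted over.

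Genes that act with the members were described by 4 further lists of 135 genes, 131 of them tested. Of these, 0 passed over all genes in either direction with edgeR, and 0 with limma-voom. DESeq2 called 2 higher and 3 lower, where it called 3.97% of all genes. Of 12 kinases, phosphatases and importers of SR proteins, 7 did not overlap between groups, 5 lower and 2 higher (58.3%, against 27.1% of all tested genes), and 6 had an unadjusted p under 0.05 (50%, against 17.7%). Clk1, whose kinase phosphorylates SR proteins in the nucleus, had the smallest p of the members and of these lists. It was at 141, 143 and 136 CPM in control KD and at 84.5, 104 and 80.8 CPM in Paupar KD. All 3 Paupar KD libraries lay far below the controls, at 0.64 of their level (edgeR log2 fold change -0.64 ± 0.11 SE and adjusted p = 0.0803; DESeq2 adjusted p = 0.000114). Without Paupar KD replicate 1 or 3 edgeR called Clk1 lower (adjusted p = 0.0338, where 1.91% of all genes were called, and 0.0222, where 10.3% were). With each other library left out in turn its adjusted p was 0.159 to 0.493. Clk4 was at 71.4, 67.4 and 68.0 CPM and at 39.0, 57.6 and 43.7 CPM, without overlap (edgeR log2 fold change -0.56 ± 0.14 SE and adjusted p = 0.149; DESeq2 adjusted p = 0.0210). Clk3 also did not overlap, at 78.9 to 90.1 CPM and 67.1 to 75.6 CPM, whereas Clk2 stood at 52.8, 41.0 and 34.8 CPM around its controls at 41.1 to 42.4 CPM. Srpk2, a cytoplasmic SR protein kinase gene, was at 180 to 187 CPM in the controls and at 131, 159 and 154 CPM in Paupar KD, again without overlap (edgeR log2 fold change -0.32 ± 0.10 SE and adjusted p = 0.184).

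**Figure D4:**
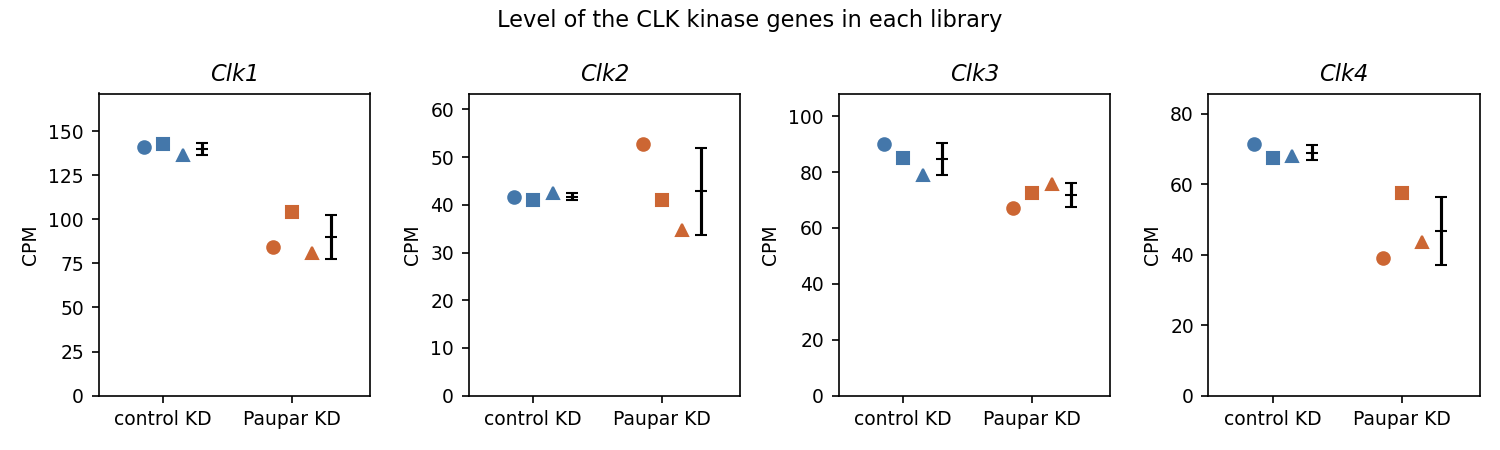
Level in CPM (from 0) of the 4 CLK kinase genes in each library, with circles, squares and triangles for replicates 1, 2 and 3 and the mean ± SD at the right of each group. Clk1, Clk3 and Clk4 lie below the controls in all 3 Paupar KD libraries, and Clk2 straddles them.

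Of 55 other splicing regulators 51 were tested, with 4 higher and 6 lower at an unadjusted p under 0.05 (19.6%, near the 17.7% of all tested genes). Of the 51, 12 did not overlap between groups, 5 higher and 7 lower (23.5%, against 27.1% of all tested genes). Celf6 was at 23.0 to 25.4 CPM in control KD and at 34.6, 29.9 and 36.1 CPM in Paupar KD (edgeR log2 fold change 0.46 ± 0.10 SE and adjusted p = 0.133; DESeq2 adjusted p = 0.0154). Hnrnpa3 was at 99.2 to 109 CPM and at 66.8, 83.2 and 84.7 CPM (edgeR adjusted p = 0.161; DESeq2 adjusted p = 0.0431). Qk, which encodes the quaking protein, was at 91.7 to 98.0 CPM and at 48.5, 76.8 and 71.4 CPM (edgeR adjusted p = 0.178). None of these 3 overlapped between groups. Qk was called lower without Paupar KD replicate 1 (edgeR log2 fold change -0.37, adjusted p = 0.0412), where 1.91% of all genes were called. Without replicate 3, where 10.3% of all genes were called, edgeR called Celf6 higher (adjusted p = 0.0484) and Hnrnpa3 lower (0.0417). Of 50 genes of the core spliceosome, 29 had a positive and 21 a negative log2 fold change (median 0.03), and 4 were higher and 0 lower at an unadjusted p under 0.05. That is 8% of the list, below the 17.7% of all tested genes. Of the 50, 8 did not overlap between groups, 4 higher and 4 lower (16%, against 27.1% of all tested genes). Sf3b5, of the U2 particle, was at 39.2 to 51.9 CPM and at 76.1, 59.4 and 63.5 CPM (edgeR log2 fold change 0.58 ± 0.14 SE and adjusted p = 0.143; DESeq2 adjusted p = 0.0138). Phf5a, of the same particle, and Snrpb, which encodes Sm proteins, were 1.26-fold and 1.27-fold above control KD, also without overlap (edgeR adjusted p = 0.168 and 0.184). Without Paupar KD replicate 3 edgeR called Sf3b5 (adjusted p = 0.0428) and Phf5a (0.0395) higher. Of 18 genes of the exon junction complex and nonsense-mediated decay, 8 did not overlap between groups, 3 higher and 5 lower (44.4%, against 27.1% of all tested genes). At an unadjusted p under 0.05, 2 were higher and 1 lower (16.7%, near the 17.7% of all tested genes). Those were the core subunit genes Magohb (10.2 to 12.6 against 19.3, 18.0 and 14.1 CPM) and Magoh (42.8 to 49.1 against 84.2, 70.2 and 48.6 CPM), and Upf3a (25.4 to 28.9 against 20.2, 25.0 and 21.4 CPM). With all libraries edgeR's adjusted p was 0.167 for Magohb, 0.223 for Magoh and 0.236 for Upf3a. Magoh overlapped between groups, with Paupar KD replicate 3 inside the control range. Without Paupar KD replicate 3 edgeR called Magoh (adjusted p = 0.0124) and Magohb (0.0222) higher. In that setting it called 7 genes of the 4 further lists higher and 3 lower, and 4.65% and 5.67% of all genes.

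Transcript length moved with these differences. Over 2040 tested genes with a longest transcript under 1.5 kb, Paupar KD replicates 1 to 3 lay a median of 0.26, 0.13 and 0.05 above the control mean in log2 CPM. Over 2315 genes above 5 kb those medians were -0.29, -0.08 and 0.02. Srrm2 is 8596 bases long, while Sf3b5, Phf5a, Magoh and Magohb are 733, 864, 692 and 897 bases long. Across the 36 members, Spearman's correlation of length with the difference from the control mean was -0.47, -0.24 and 0.22 in replicates 1 to 3. This is a description across genes that share libraries. With each library's trend on length removed by offsets, an alternative chosen after seeing the data, Srrm2 was at a log2 fold change of -0.49 (edgeR adjusted p = 0.110) and Ptbp2 at 0.50 (0.199). Among short transcripts the log2 fold change went from 0.58 to 0.40 for Sf3b5, from 0.33 to 0.16 for Phf5a, from 0.53 to 0.33 for Magoh, from 0.55 to 0.38 for Magohb and from 0.34 to 0.21 for Snrpb. The core spliceosome list then had 24 positive and 26 negative values in place of 29 and 21. Qk had no transcript length and was not fitted. Clk1, at 2105 bases, was then called lower (log2 fold change -0.69, edgeR adjusted p = 0.0408), and still 0 members were called, where 0.581% of all genes were. Under these offsets Srsf9 was at a log2 fold change of 0.22 and overlapped between groups, and Ptbp2 did not. The log2 fold changes of Srsf1, Srsf7, Hnrnpa2b1, Nova1 and Mbnl1, between -0.10 and 0.01 without offsets, turned their sign.

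**Figure D5:**
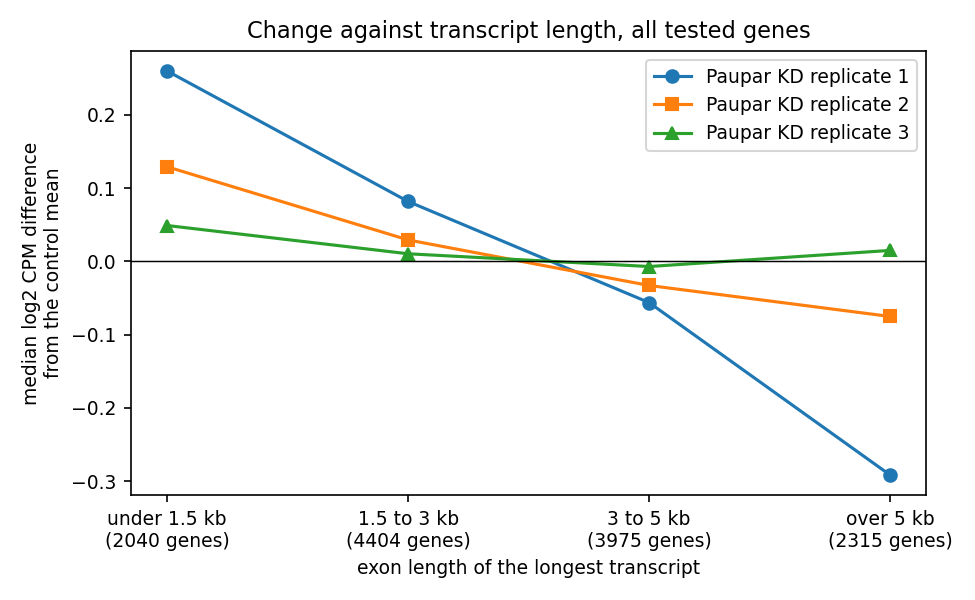
Median log2 CPM difference from the control mean over all tested genes in 4 classes of transcript length (number of genes in brackets), 1 line per Paupar KD library. The line of replicate 1 falls from 0.26 to -0.29, that of replicate 2 from 0.13 to -0.08, and that of replicate 3 stays between -0.01 and 0.05.

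Library totals were 22463557 to 28693863 counts in control KD and 16973622 to 23434166 in Paupar KD, lowest in replicate 1. Pax6, the gene whose splicing prompted the choice of members, was at 588, 620 and 547 CPM in control KD and at 387, 417 and 389 CPM in Paupar KD (edgeR log2 fold change -0.56 ± 0.09 SE and adjusted p = 0.0694; DESeq2 adjusted p = 3.13e-06). EdgeR called Pax6 lower without Paupar KD replicate 1 (adjusted p = 0.0160) or 3 (0.0198), and with length offsets its log2 fold change was -0.40 (adjusted p = 0.170). Markers of the labelled cells were present in every library, with 9 beta cell genes summing to 39279 to 43340 CPM in control KD and 44074 to 64630 CPM in Paupar KD. The 10 mesenchymal, endothelial and immune markers summed to 4.22 to 4.82 CPM and 3.37 to 3.90 CPM. Of the 10 neuron and glia markers 5 were tested, and their sum of 733 to 771 CPM and 648 to 692 CPM was mostly Map2, Snap25 and Mbp; Neurod6 and Olig2 were at 0 counts. The 10 exocrine and duct markers summed to 235 to 250.0 CPM and 222 to 333 CPM, nearly all Krt7, with Cpa1, Pnlip, Prss1, Ptf1a and Sox9 at 0 counts. The part of other cell types in the results was not tested.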

How the data were processed

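The authors deposited 1 table per library of raw, unnormalized read counts for 23284 gene symbols. The submitters' processing notes list mm9 and the tools HTSeq, DESeq2, HISAT2 and CASAVA 1.8.2. What each did, the annotation and the strand setting were not given in the sources used here. Per the labels, libraries were made with a TruSeq RNA kit. These counts went into edgeR 4.0.16 (R 4.3.3): filterByExpr (minimum count 10), which left 13039 genes, TMM scaling and the robust quasi-likelihood test, with Benjamini-Hochberg adjustment over all tested genes at 0.05. The standard error is the log2 fold change divided by the root of F. Differences of single libraries use log2 CPM with a prior count of 2. DESeq2 1.42.0, limma-voom (limma 3.58.1), other scalings and filters, a replicate block and leaving out each library were alternatives; offsets for transcript length were added after seeing the data. Each tool was tested on simulated counts, drawn with the same spread in both groups and no trend on transcript length. The real libraries differ on both points, so that test does not show how the tools behave on them. Every pair of replicates differed beyond sampling noise (chi-square per gene 3.46 or more).

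The members, gene lists and tests were chosen with earlier results of these data known. Named with all libraries' values were members whose groups did not overlap or with an unadjusted p under 0.05, the smallest p of each role class, Ptbp1, Ptbp2, Srrm4, Rbfox2, Elavl4, Nova1, Esrp1 and Srsf1, and Pax6. The 3 smallest p of each further list were named too, most with their controls as a range. Phf5a and Snrpb were given without library values. Tra2a, Srsf7, Hnrnph1, Hnrnpf, Hnrnpa2b1, Hnrnpu, Celf1, Mbnl1, Clk2, Clk3, Srrm3 and Ptbp3 were singled out after their values were seen. Coordinates, transcript lengths and splice sites come from GENCODE M1 on NCBIM37, the assembly called mm9; 97.7% of tested genes had a length. RefSeq synonyms matched Smg8, Smg9 and Map2 to the files.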

Additional observations from a re-analysis of the deposited data

How the results depend on the processing

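Over all tested genes the main test called 5 higher and 1 lower. DESeq2 called 275 and 233, length offsets gave 49 and 25, no low-count filter 36 and 24, upper-quartile factors 3 and 0, a minimum mean CPM of 1 gave 2 and 0, and a replicate block 1 and 0. Leaving out 1 library gave 0 to 611 and 0 to 745. The highest counts came without Paupar KD replicate 3; dropping Paupar KD replicate 1 gave 123 and 128, and dropping any other library gave 0. Members called stayed at 0 and 0, except 1 lower with DESeq2 and, with a library left out, 0 to 3 higher and 0 to 2 lower. Members without overlap, 1 higher and 9 lower, were 2 higher and 7 lower with upper-quartile factors. With a library left out they were 1 to 10 higher and 10 to 14 lower. The 10 higher came without Paupar KD replicate 3 and the 14 lower without replicate 2. Groups part more easily when 1 of them has only 2 libraries. The share of all tested genes without overlap is not given here for these settings, so these counts are no result about the members. Genes of the further lists called were 2 higher and 3 lower with DESeq2, 1 lower (Clk1) without a low-count filter or with length offsets, and 0 to 7 higher and 0 to 3 lower with a library left out. The cause was not tested.

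Of 576 recomputed member values 540 kept direction and side of the threshold, 6 newly passed and 30 changed sign, in 13 members never called in any of them. Srsf7 was at -0.0068 without a filter, -0.0007 at a minimum mean CPM of 1, -0.0337 with limma-voom, -0.0321 with a replicate block and -0.0344 with length offsets. Celf1 was at -0.0092 without a filter and -0.0043 at a minimum mean CPM of 1. Hnrnpa2b1 was at 0.0188 with upper-quartile factors. With length offsets Hnrnpa2b1 was at 0.0366, Srsf1 at 0.0222, Nova1 at 0.0197 and Mbnl1 at 0.045. With a library left out the ranges were -0.11 to 0.0009 (Srsf1), -0.0199 to 0.1749 (Srsf2), -0.21 to 0.21 (Srsf7), -0.47 to 0.10 (Hnrnpa1), -0.14 to 0.15 (Hnrnpa2b1), -0.0714 to 0.0899 (Hnrnpc), -0.0491 to 0.0795 (Hnrnpl), -0.1711 to 0.0224 (Hnrnpu), -0.0065 to 0.17 (Esrp1), -0.0375 to 0.0237 (Celf1), -0.13 to 0.10 (Mbnl1) and -0.0107 to 0.061 (Khdrbs1).

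No label ties the replicate numbers to a shared culture or day, so the numbers were not taken as pairs. Same-numbered libraries did not deviate together from their group means (correlations across genes 0.07, -0.01 and 0.01). For libraries with different numbers the correlations were -0.06 to 0.08. Low counts limit Hnrnpa1 and Srrm4 most.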
